A study of Mus musculus with 4 samples.

Results

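Cholesterol synthesis, sensing and trafficking genes were described in 2 tissues, liver and duodenum, of CA-AhR transgenic and wild-type mice. The set was a list of 35 gene symbols, matched by symbol to the annotation of the array's probe sets, and 33 of the 35 had a probe set of their own among the 18194 genes named on the array. Soat1 and Soat2, the cholesterol esterifying enzymes, were not analysed here. By role, 8 of the 33 were assigned to the early mevalonate and isoprenoid steps and 11 to the late sterol steps. Another 7 were assigned to sensing and processing and 6 to carriers. Lcat, a plasma enzyme that esterifies cholesterol on lipoproteins, stood alone.

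The transgenic mice express a constitutively activated aryl hydrocarbon receptor (AhR), a transcription factor that otherwise waits for a ligand such as a dioxin. The promoter that drives the transgene and the strain are not given in the labels. Every group was 1 pool of tissue from 3 female mice aged 5 to 6 weeks on standard chow, on 1 Affymetrix Mouse Genome 430 2.0 array, in 4 groups: wild-type liver, transgenic liver, wild-type duodenum and transgenic duodenum. There is thus no replicate check on any value here, no test between groups was possible, and precision is limited by how few arrays there are.

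Cells make cholesterol from acetyl-CoA through mevalonate. The early steps build isoprenoid units that also feed other products such as prenylated proteins, and the late steps, from squalene onward, are committed to sterols. When the endoplasmic reticulum holds little sterol, Scap escorts the transcription factor SREBP2, encoded by Srebf2, to the Golgi, where the proteases of Mbtps1 and Mbtps2 release it to switch on the synthesis genes, while the Insig proteins hold the complex back when sterol is plentiful. Liver is a main site of this synthesis and of cholesterol export, and the proximal intestine absorbs cholesterol through Npc1l1.

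Values are MAS5 signals in arbitrary units, set by the authors' scaling to the same trimmed mean of 500.0 on each array. Signals under a floor of 129.3, set at each array's 40th percentile and averaged, were raised to it before a ratio was taken. Higher and lower mean 1.5-fold or more unless a value is given. Cyp1a1, a direct AhR target, went from 1404 to 47626 between wild-type and transgenic liver and from 2109.5 to 20796 between the duodenums, Alb was far higher in both livers, and the brush border genes Lct and Vil1 far higher in both duodenums. Ahr itself read 2019.8 and 2274 in liver and 2123 and 590.2 in duodenum, and whether its probe set reads the transgene is not given. The 18 probe sets of the spiked hybridization controls gave transgenic over wild-type log2 ratios with a median of -0.68 in liver and 0.054 in duodenum. They are not tissue RNA, but on a scale set by them the liver median of all genes would lie at 0.69 instead of 0.011, so every liver ratio below is relative to the authors' scale. The Gapdh 3′/5′ ratio, which goes up as RNA is degraded or labelling stops short, was 0.608 to 1.03 on 3 arrays and 3.07 in transgenic duodenum.

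In transgenic liver 12 of the 19 synthesis enzymes were lower than in wild-type liver, while most sensors and carriers stayed within 1.5-fold. Of all 33 members, 14 were 1.5-fold or more lower and 1, Stard3, was higher, where 12.1% of all 13952 genes measured in liver were lower and 13.5% higher. The members' median log2 ratio was -0.38 beside 0.011 for all genes, and 23 of 33 lay below 0, beside 6814 of all 13952 genes. On the spiked-control scale this split was 2 lower and 12 higher, beside 1.48% lower and 59.3% higher for all genes. Among bright genes, those with a mean signal of at least 1000, 13 of 26 members were lower, where 8.01% of all bright genes were. Of the 19 synthesis enzymes 0 were higher, and their median was -0.78. In pooled tissue, fewer cells of a type and less RNA per cell cannot be told apart.

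**Figure D1:**
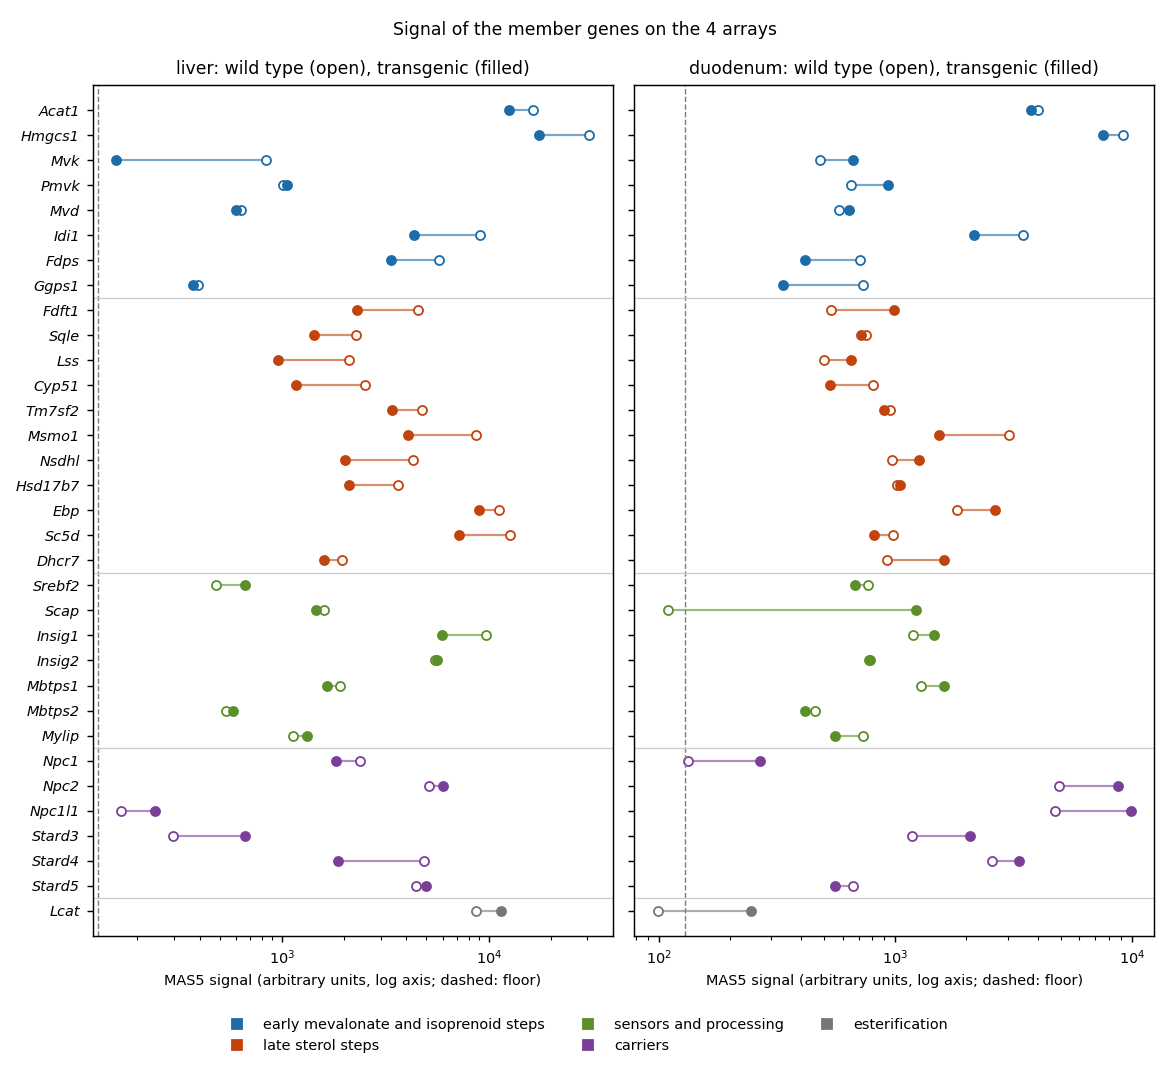
MAS5 signal (arbitrary units, log axis) of the 33 genes in liver (left) and duodenum (right), each gene 1 row, open circles wild type, filled circles transgenic, 1 array each, coloured by role, with the floor of 129.3 dashed. In liver all 11 late sterol genes have the filled circle to the left, the widest gap belongs to Mvk (835 against 158), and in duodenum the carriers Npc1, Npc2, Npc1l1, Stard3 and Stard4 have it to the right.

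The 6 synthesis genes that were 2-fold or more lower in transgenic liver and have an entry in the promoter table are shown with the 100 bases before their annotated start, since SREBP2 is known to act with the factor NF-Y bound close by. Each is given 5′ to 3′ on the gene's own strand, from RefSeq on GRCm38.p6, and capitals mark the NF-Y letters CCAAT or their reverse complement ATTGG.
Cyp51 (chr5:4104698-4104797, minus strand): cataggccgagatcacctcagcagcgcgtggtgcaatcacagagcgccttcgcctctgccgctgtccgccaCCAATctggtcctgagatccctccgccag
Idi1 (chr13:8885506-8885605, plus strand): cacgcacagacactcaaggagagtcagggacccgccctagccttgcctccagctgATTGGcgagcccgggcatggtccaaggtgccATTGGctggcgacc
Lss (chr10:76531505-76531604, plus strand): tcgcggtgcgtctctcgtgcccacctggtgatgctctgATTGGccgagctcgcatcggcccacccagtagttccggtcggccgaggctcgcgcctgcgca
Msmo1 (chr8:64733579-64733678, minus strand): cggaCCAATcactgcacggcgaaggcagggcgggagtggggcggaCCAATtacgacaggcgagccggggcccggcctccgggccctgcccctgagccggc
Mvk (chr5:114444169-114444268, plus strand): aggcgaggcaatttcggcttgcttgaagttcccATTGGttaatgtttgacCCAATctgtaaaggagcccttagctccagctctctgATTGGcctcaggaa
Nsdhl (chrX:72918421-72918520, plus strand): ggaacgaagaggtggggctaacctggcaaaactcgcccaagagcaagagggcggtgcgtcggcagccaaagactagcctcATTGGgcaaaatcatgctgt

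Each of the 6 stretches holds the NF-Y letters, once in Cyp51, Lss and Nsdhl, in 2 places in Idi1 and Msmo1 and in 3 in Mvk. Over the full 250 bases before the start, on both strands, CCAAT was present for 25 of the 28 listed genes that have an entry (89.3%), against 37.5% of 27025 genes in the table and 39.4% of those on the array. It was present in 10 of the 10 members with an entry that were lower in transgenic liver and in 15 of the other 18 (83.3%), Soat1 among them, so most members carry it whichever way their signal lay. The Sp1 letters GGGCGG were present for 22 of 28 (78.6%), against 35.4% of genes in the table and 53.4% of those on the array, in 10 of 10 and in 12 of 18. The AhR core letters TNGCGTG were found for 1 of 28, Insig1 (3.57%), against 4.76% of genes in the table and 6.62% of those on the array. The sterol response element letters TCACNCCAC were found for 2 of 28, against 1.22% and 1.27%, and its E-box form TCACGTGA for 0, against 0.907% and 1.32%. No searched string contains another, and a match describes letters only, not a bound site.

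The 2 genes with the sterol element letters are shown around them, because they lay on opposite sides in liver, Hmgcs1 lower and Stard3 higher. Capitals mark TCACNCCAC and, in Hmgcs1, an NF-Y box. The Hmgcs1 stretch runs from 189 to 117 bases before the start and the Stard3 stretch from 250 to 191.
Hmgcs1 (chr13:119690162-119690234, plus strand): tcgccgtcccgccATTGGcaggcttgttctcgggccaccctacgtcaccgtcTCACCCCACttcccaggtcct
Stard3 (chr11:98358118-98358177, plus strand): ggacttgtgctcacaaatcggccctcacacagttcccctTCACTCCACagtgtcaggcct

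Among the 8 early genes, 4 were lower in transgenic liver and 0 higher, with a median of -0.58 that would read 0.10 on the spiked-control scale. Signals are given from here on in the order wild-type liver, transgenic liver, wild-type duodenum and transgenic duodenum. Hmgcs1, the synthase that makes HMG-CoA and the gateway to mevalonate, read 30535, 17535, 9173 and 7585. The transgenic liver was 1.74-fold lower (log2 ratio -0.80), and the duodenum ratio was -0.27. The 3 other measured probe sets of the gene gave liver ratios of -0.99, -1.08 and -1.17 and duodenum ratios of -0.80, -0.49 and -1.28, so the one used here was the least low in both tissues. Mvk, the kinase that phosphorylates mevalonate, read 835, 158, 481 and 665. Its 5.28-fold lower signal in transgenic liver (-2.40) was the lowest ratio of the set, and it brought the signal close to the floor. The second Mvk probe set read 345 and 191 in liver, a ratio of -0.86, so both were lower but the size differed between them.

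Idi1, the isomerase that supplies both isoprenoid building blocks, read 9031, 4352, 3464 and 2161. It was 2.08-fold lower in transgenic liver (-1.05), and its other probe set gave -0.76. Fdps, which joins those units to farnesyl diphosphate at the branch towards sterols, read 5755, 3374, 713 and 416. The gene was 1.71-fold lower in both transgenic tissues (-0.77 in liver, -0.78 in duodenum). Not every early step shared this. Pmvk, the next kinase after Mvk, read 1012, 1053, 648 and 929 and had a liver ratio of 0.058. Mvd, the decarboxylase that follows, read 635, 601, 579.8 and 636 on the probe set used (-0.078 in liver), but 678 and 332 in liver on its other one (-1.03), so its liver value depends on the probe set. Ggps1, which makes the geranylgeranyl unit for proteins rather than for sterols, had a liver ratio of -0.091, and Acat1, a thiolase of acetyl-CoA units, -0.38.

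All 11 late sterol genes had a liver ratio below 0, from -1.13 to -0.28, although Sqle, Tm7sf2, Ebp and Dhcr7 turned above 0 on the spiked-control scale. By 1.5-fold or more, 8 of the 11 were lower. Their median was -0.83, the lowest of the role groups, and stayed below 0 at -0.14 on the spiked-control scale, where the all-gene median was 0.69. Fdft1, the squalene synthase that commits the pathway to sterols, read 4563, 2303, 537 and 984, 1.98-fold lower in transgenic liver (-0.99). Sqle, the oxygenase that makes squalene epoxide, read 2274, 1432, 754 and 717, 1.59-fold lower (-0.67, and 0.015 on the spiked-control scale). Lss, which closes the sterol rings to lanosterol, read 2100.3, 961, 498 and 648, 2.18-fold lower in transgenic liver (-1.13). The 3 enzymes act one after another at the entry to the sterols, and on all 3 the wild-type liver was the highest array.

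The demethylation of lanosterol comes next. Cyp51, the cytochrome that removes the first methyl group, read 2522, 1166, 806 and 529, 2.16-fold lower in transgenic liver (-1.11). Msmo1, the oxidase that starts removal of the next methyl groups, read 8719.9, 4091, 3029 and 1537, 2.13-fold lower (-1.09). Nsdhl, the dehydrogenase of the same complex, read 4323, 2015, 971 and 1265, 2.14-fold lower (-1.10). On the probe sets used, Cyp51, Msmo1 and Nsdhl thus lay between -1.11 and -1.09 in liver, and their duodenum ratios spread from -0.98 to 0.38. Other probe sets gave -0.95 for Cyp51, with another at -0.72 that is a bound because the transgenic liver was under the floor, and -0.66 for Msmo1, also with the transgenic liver under the floor. Hsd17b7, the reductase that completes the complex, read 3624, 2113, 1016 and 1045, 1.71-fold lower (-0.78), but its 3 other probe sets gave -0.58, -0.070 and -0.050.

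The remaining late genes differed in size. Sc5d, a desaturase near the end, read 12749.6, 7197, 975 and 812, 1.77-fold lower in transgenic liver (-0.83). Its other probe sets gave -0.57 and -0.36, short of 1.5-fold. Tm7sf2, a sterol reductase, read 4750.4, 3392, 950 and 899 (-0.49), Ebp, a sterol isomerase, 11273, 8929.9, 1826 and 2645 (-0.34), and Dhcr7, which reduces the last double bond on one route to cholesterol, 1953, 1604, 925 and 1605 (-0.28). Tm7sf2, Ebp and Dhcr7 were below wild type in liver without reaching 1.5-fold, and each was read by a single probe set.

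The sensors differed little between the livers. Of 7, 1 was lower and 0 higher, with a median of 0.034 (0.72 on the spiked-control scale, close to the all-gene median there). Insig1, the retention protein that is itself a target of SREBP2, read 9696, 5953, 1191 and 1463, 1.63-fold lower in transgenic liver (-0.70). Its relative Insig2, which is not driven by SREBP2 in the same way, read 5478, 5608, 784 and 775 and differed by 0.034. Srebf2 itself read 478, 667, 764 and 676, a liver ratio of 0.48 on the probe set used and -0.88 on its other one, so no direction can be given for it. Scap (-0.13), Mbtps1 (-0.20), Mbtps2 (0.12) and Mylip (0.22), a ubiquitin ligase for lipoprotein receptors, all stayed within 1.5-fold in liver, although another Mbtps1 probe set gave -0.63.

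The carriers held the highest liver ratio of the set and, after Mvk, the lowest. Stard4, a soluble cholesterol carrier and a target of SREBP2, read 4859.6, 1871, 2561 and 3352, 2.60-fold lower in transgenic liver (-1.38). Its other probe sets gave -1.74 and -0.91, and on the probe set used the transgenic liver was the lowest array. Stard3, a related protein of late endosomes, read 297, 662, 1176 and 2072, 2.23-fold higher (1.16). No other member was 1.5-fold or more higher in the transgenic liver, and a single probe set reads Stard3. Stard5, another soluble family member, differed by 0.16 on the probe set used, while its 3 others lay between -1.09 and -0.28. Npc1 and Npc2, which hand cholesterol out of the lysosome, had liver ratios of -0.38 and 0.22, and Npc1l1 0.55 at signals just above the floor. Over the 6 carriers the liver median was 0.19 and turned to -0.20 when all probe sets of a gene were averaged.

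Where a lower call in liver could be set against other probe sets of the same gene, they pointed the same way. Over all 73 probe sets of the members, 33 of 67 measured in liver were 1.5-fold or more lower and 2 higher. Of all 29639 measured probe sets other than controls, named or not, 13.1% were lower. Of the 15 members called in liver, 10 had other measured probe sets, 19 in all. All 19 had the same sign as the one used and 14 passed 1.5-fold with it. For all genes called lower in liver the same sign was seen for 68.1% of other probe sets and 1.5-fold for 30.0%, and for bright genes for 78.2% and 46.0%. Probe sets of a gene share the RNA pool and the array, so this bears on the probes and not on the mice.

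**Figure D2:**
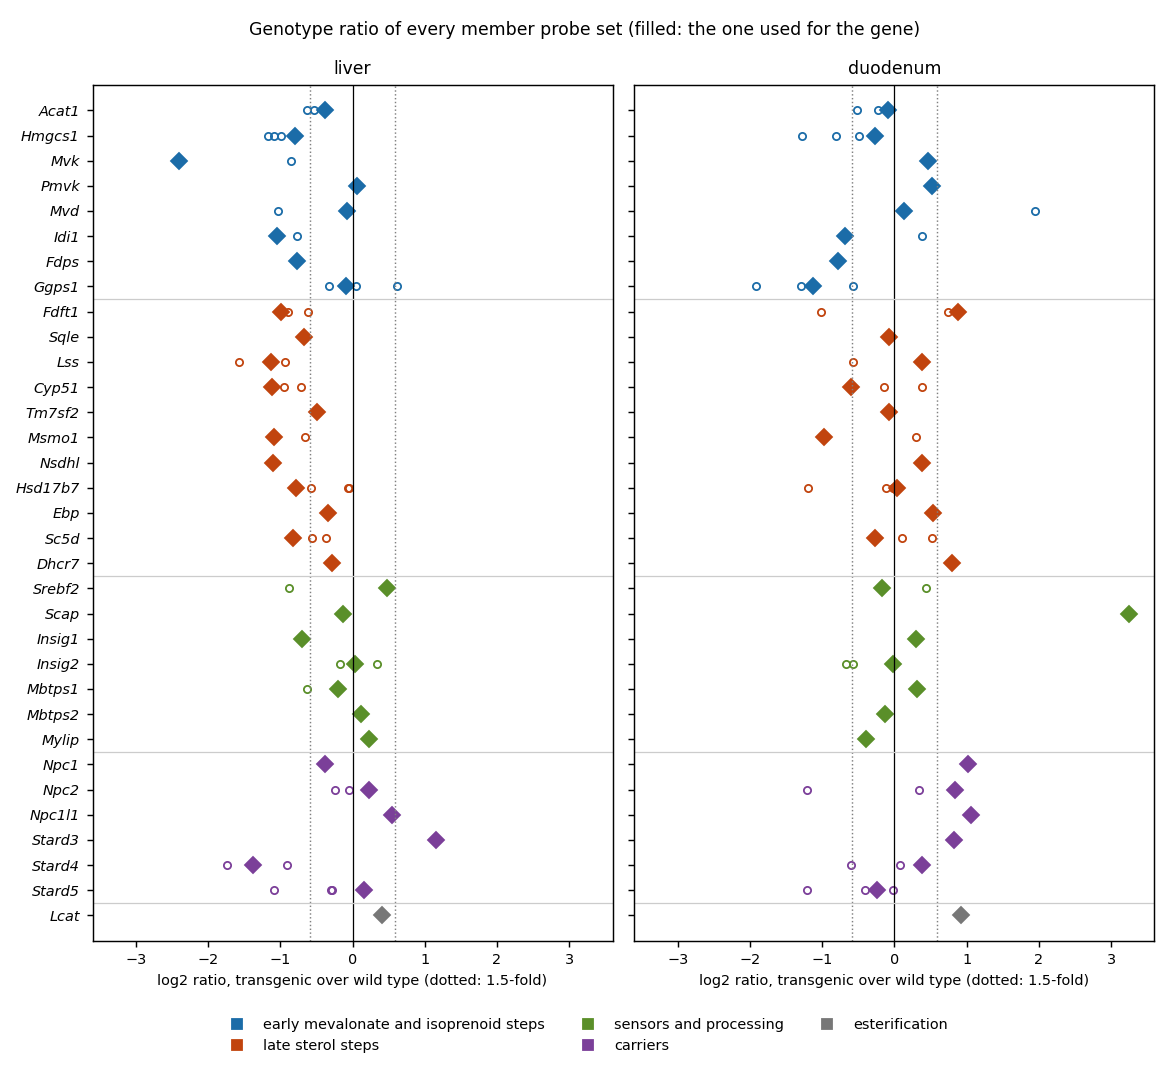
log2 ratio of transgenic over wild type for every measured member probe set, liver left and duodenum right, filled diamonds the probe set used for the gene, open circles its others, dotted lines 1.5-fold, on the authors' scale (a spiked-control scale would shift all liver points right by 0.68). In liver the open circles of Hmgcs1, Idi1, Fdft1, Lss, Cyp51 and Stard4 lie left of 0 with their diamonds, while in duodenum Idi1, Fdft1, Cyp51, Msmo1 and Npc2 each have an open circle across 0 from the diamond.

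In duodenum members were called no more often than other genes. Of the 33 members, 8 were higher and 5 lower, beside 19.2% of all 14721 genes higher and 25.9% lower, so members passed the threshold in 39.4% of cases and all genes in 45.1%. The members' median was 0.13 beside -0.11 for all genes, and it was -0.013 when all probe sets of a gene were averaged. After quantile normalization 9 members were higher and 5 lower, beside 23.2% and 19.2% of all genes. By role, 0 of 8 early genes were higher and 3 lower (median -0.18), 2 of 11 late genes higher and 2 lower (0.041), 1 of 7 sensors higher and 0 lower (-0.017), and 4 of 6 carriers higher and 0 lower (0.83). Of those 4 carriers, Npc2 lost its call when probe sets were averaged or multi-transcript ones left out, and Npc1 with a higher floor. Npc2 also lost it after quantile normalization (0.53) and with loess (0.58). Npc1, Npc1l1 and Stard3 are each read by a single probe set, so averaging could not change them.

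Npc1l1, the cholesterol importer of the enterocyte brush border, read 167, 244, 4742 and 9901, 2.09-fold higher in transgenic duodenum (1.06). Npc2 read 5157, 6024, 4931 and 8781, 1.78-fold higher (0.83), but its other probe sets gave 0.35 and -1.22, and the mean over them was -0.013. Stard3 was 1.76-fold higher (0.82), the one member higher in both tissues. For Npc1l1, Npc2 and Stard3 the transgenic duodenum was the highest of the 4 arrays. Npc1 read 2386, 1835, 133 and 268, 2.02-fold higher in duodenum (1.01), with the wild-type array close to the floor, and the ratio was 0.0088 with a floor at the 60th percentile. Lcat read 8686, 11492, 99.5 and 245, at least 1.89-fold higher, since the wild-type duodenum lay under the floor. Scap, the escort of SREBP2, read 1603, 1469, 109 and 1225, at least 9.47-fold higher. The wild-type duodenum stood apart from the other 3 arrays, while a second Scap probe set was under the floor on all 4 arrays.

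Among enzymes in duodenum, Fdft1 was 1.83-fold higher (0.87) and Dhcr7 1.74-fold higher (0.80). The other Fdft1 probe sets gave 0.74 and -1.01, so its direction rests on which is read. Lower were Ggps1, which read 394, 369.6, 731 and 336 (2.18-fold, -1.12), Msmo1 (1.97-fold), Fdps (1.71-fold), Idi1 (1.60-fold) and Cyp51 (1.52-fold). For Ggps1 all 4 probe sets were lower in transgenic duodenum, from -1.91 to -0.58. Of the 6 members called in duodenum with other measured probe sets, Ggps1 was the only one whose others all shared its sign. In all, 6 of 11 other probe sets did, and 2 passed 1.5-fold the opposite way. Among all genes the share was 73.6% for lower and 54.4% for higher calls.

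Markers of other cell types and a sign of RNA quality differed with the duodenum contrast. The summed signal of 11 exocrine pancreas markers was 6264 in wild-type and 116467 in transgenic duodenum, with 11 of 11 higher and 5 under the floor in the wild type. For 8 markers of Brunner glands and stomach it was 3768 and 156421, with 4 of 8 under the floor in the wild type and 2 in the transgenic. Of the 6 measured, 5 were higher and 0 lower, and the transgenic sum was mostly Tff2 (92301.5) and Gkn3 (55468). The 9 enterocyte markers, none under the floor on either array, summed to 206492 and 310124, with 6 of 9 higher and 1 lower. Transgenic duodenum also had the Gapdh 3′/5′ ratio of 3.07 against 1.03. The part of these in the duodenum values of Npc1l1, Npc2, Scap and the other members was not tested.

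In liver 7 of 9 measured hepatocyte markers had a ratio below 0, as did 18 of 19 synthesis enzymes and 6814 of all 13952 genes. The 9 markers summed to 499143 in wild-type and 357376 in transgenic liver, none under the floor. Their median was -0.49, with 1 of 9 lower by 1.5-fold (Cyp2e1) and 1 higher (Ass1). Those below 0 were the brighter ones, while Hnf4a (0.14) and Ass1 (0.78) lay above 0, so sum and median follow the brightest markers. Apoa2 had the highest signal on both liver arrays, 97587 and 71556. The late sterol median of -0.83 was below that of the hepatocyte list, and the early median of -0.58 close to it. Stellate cell and fibroblast markers summed to 10227 and 28659, with 8 of 9 higher, and macrophage markers to 27851 and 27859. Of 9 enterocyte markers 4 were higher and 0 lower in liver (median 0.58), with 4 under the floor in wild-type and 0 in transgenic liver. Their sum of 17429 and 20410.1 was mostly Apob, which hepatocytes also express, and Fabp2. Goblet markers summed to 979.7 and 3049, with 2 of 4 measured higher. Of 6 Brunner gland and stomach markers measured in liver, 2 were higher and 0 lower, but 4 lay below 0 (median -0.29). Tff2, a mucous gland marker and 1 of the 2 higher, read 84.2 and 2059. The part of these cells in the liver values of the cholesterol genes was not tested.

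In both transgenic tissues, 4 enzymes were lower and 1 carrier, Stard3, was higher (3.03%, near the 3.65% of all genes). The enzymes were Idi1, Fdps, Cyp51 and Msmo1, 4 of 33 (12.1%) where 3.67% of the 12996 genes measured in both were. With probe sets averaged, Fdps alone of the 4 was lower in duodenum, and on the spiked-control scale none of the 4 was lower in liver. Fdps has a single measured probe set, so averaging could not change its value. Lower in liver and within 1.5-fold in duodenum were 9 members (27.3%, beside 6.06% of all genes): Hmgcs1, Mvk, Sqle, Lss, Nsdhl, Hsd17b7, Sc5d, Insig1 and Stard4. Hmgcs1 also passed 1.5-fold lower in duodenum with probe sets averaged (-0.71), and Hsd17b7 without multi-transcript probe sets (-1.19). Higher in duodenum and within 1.5-fold in liver were 6 (18.2%, near the 13.9% of all genes): Dhcr7, Lcat, Npc1, Npc1l1, Npc2 and Scap. Fdft1 alone was lower in liver and higher in duodenum (3.03%, beside 1.97% of all genes), a difference of -1.86 log2 units. The liver ratio minus the duodenum ratio was below 0 for 25 of 33 members and for all 11 late sterol genes, beside 5874 of all 12996 genes. It was below by 1.5-fold or more for 13 of 33 members and 7 of 11 late genes, where 21.7% of all genes were. The median difference was -0.52 for members and 0.10 for all genes, and 0.22 for members on the spiked-control scale. The contrasts share no array, and with 1 array a group the difference has no error.

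**Figure D3:**
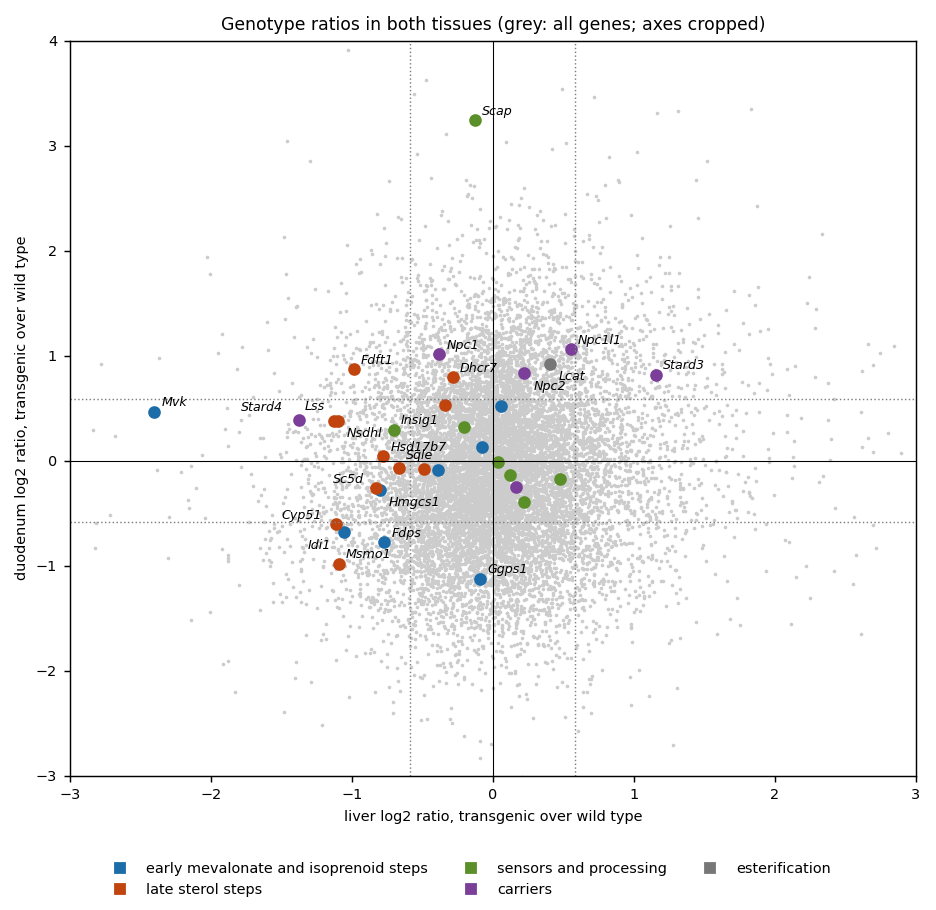
log2 ratio of transgenic over wild type in liver (horizontal) against duodenum (vertical) on the authors' scale, members coloured by role, all genes in grey, dotted lines 1.5-fold, axes cropped. The late sterol genes all lie left of 0 and spread from -0.98 to 0.87 vertically, and Mvk and Scap lie farthest out, while a spiked-control scale would shift every point right by 0.68 and take Sqle, Tm7sf2, Ebp and Dhcr7 past 0.

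The genotype ratios sit on a large tissue difference. Of 33 members, 25 were 1.5-fold or more higher in wild-type liver than in wild-type duodenum and 4 lower, beside 21.9% of all 14919 genes higher and 32.5% lower. On the spiked-control scale it was 27 and 2, beside 34.5% and 19.4%. On the probe sets used, all 11 late sterol genes were higher in liver, with a median log2 ratio of 2.08. Sc5d was 13.1-fold, Fdft1 8.50-fold and Fdps 8.07-fold higher there. Other probe sets gave 6.42-fold and 1.58-fold for Sc5d, and 9.60-fold and 1.18-fold for Fdft1. Insig1 was 8.14-fold and Npc1 18-fold higher in liver, and Scap at least 12.4-fold and Lcat at least 67.2-fold, as both lay under the floor in wild-type duodenum. The 4 that were higher in duodenum were Npc1l1, 28.4-fold, Stard3, 3.96-fold, Ggps1, 1.86-fold, and Srebf2, 1.60-fold. Mvd, Mbtps1, Mbtps2 and Npc2 each differed by less than 1.5-fold between the wild-type tissues on the probe set used. Averaged over probe sets, Mvd (1.26) and Mbtps1 (0.73) were higher in liver, and Srebf2 was within 1.5-fold (-0.37). Srebf2 also lost its call after quantile normalization (-0.58), with loess (-0.53) and on the spiked-control scale (-0.29). Ggps1 lost its call on the spiked-control scale (-0.51), and Lss without multi-transcript probe sets (0.53).

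Neighbouring pathways were described from lists of genes, counted as measured in each tissue. Over all genes measured, 25.6% passed 1.5-fold either way in liver and 45.1% in duodenum, and the small counts below are to be read against those shares. Of 4 other genes of sterol synthesis and turnover in liver, 1 was lower, Erg28, the scaffold of the demethylation complex of Msmo1 and Nsdhl (5568 and 3219, 1.73-fold), and 1 higher, the ubiquitin ligase Rnf145 (561 and 1225, 2.18-fold). Tmem97, a sterol-regulated membrane protein, had a ratio of -0.52. Of 5 genes of lipoprotein uptake and lysosomal release, 1 was lower in liver, Nceh1, a cholesterol ester hydrolase (-1.15), and 3 were higher in duodenum, Vldlr (2.24), Lrp1 (1.33) and Nceh1 (0.72). Of 7 genes of the sterol-sensing receptors LXR and of efflux, 0 were higher or lower in liver, where Abcg1 had the highest ratio (0.42). In duodenum 1 was higher, Cyp27a1, a mitochondrial sterol hydroxylase (0.93).

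Of 11 genes of the SREBP1 arm, which drives fatty acid synthesis, 0 were higher and 2 lower in liver, with a median of -0.30. Acss2, which makes acetyl-CoA from acetate, read 3444, 1634, 444 and 743 (-1.08 in liver), and Fasn, the fatty acid synthase, 4985, 2819, 241 and 1228 (-0.82). In duodenum 4 were higher and 3 lower, led by Fasn (2.35) and Acly (1.81) and, at the other end, Scd1 (-1.24) and Pnpla3 (-0.89). Fasn thus lay on opposite sides in the tissues, as Fdft1 did, and that difference was not tested. Of 12 other sterol carriers in liver, 2 were higher (Gramd1c 1.08, Stard13 0.87) and 1 lower (Osbpl8 -0.70). In duodenum 1 of 13 was higher (Tspo 0.70) and 1 lower (Osbpl8 -0.997). The isoprenoid branches that leave the pathway at Fdps and Ggps1 had 1 of 8 higher in liver (Fntb, 0.95) and 0 lower, and 1 of 9 higher (Fntb, 0.99) and 1 lower (Nus1, -0.76) in duodenum.

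The order of the role groups in liver held under most processing choices. The late median ranged from -0.83 to -0.67 and the early median from -0.77 to -0.39 over 7 settings that keep the authors' scale or equalise the arrays. The early median was below the late one only when multi-transcript probe sets were left out, and nearly equal with probe sets averaged (-0.66 and -0.67). The sensors and carriers were never below either group. They changed places with probe sets averaged (sensors -0.13, carriers -0.20) and without multi-transcript ones (0.034 and -0.17). On the spiked-control scale all medians shifted up by 0.68, which left the members' median (0.30) under that of all genes (0.69), as on the authors' scale.

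**Figure D4:**
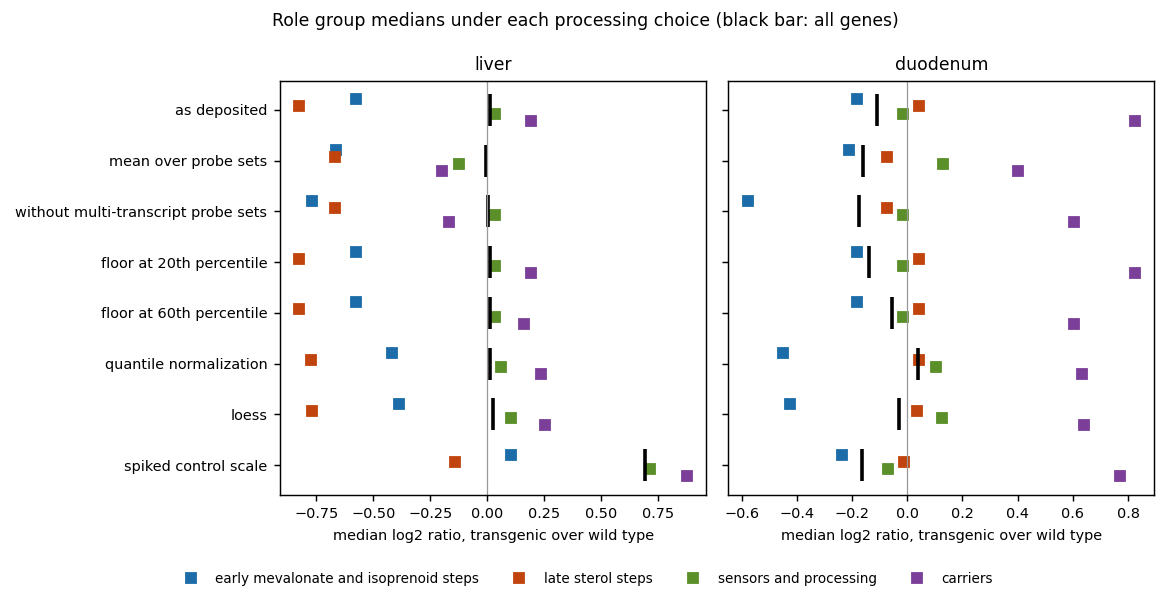
Median log2 genotype ratio (transgenic over wild type) of the 4 role groups (squares) and all genes (black bars) under the values as deposited and 7 other processing choices, liver left and duodenum right. In liver the late and early groups lie left of the bar in each row, although on the spiked-control scale the early median is above 0 (0.10), and in duodenum the carriers lie farthest right in each row.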

How the data were processed

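Gene expression was measured in 4 RNA pools, 1 array each. The authors deposited linear signal intensities for each probe set, and the submitters' processing notes name MAS5 as the tool. Its version, detection calls, scan settings and any batch are not given in the sources used. Names came from the platform annotation, with symbols updated from RefSeq's gene table: of 45101 probe sets, 34958 had 1 symbol, 932 several and 9211 were not listed, and only those with 1 symbol were used.

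Where a gene had several probe sets, the one brightest on average (mean of log2 signals) was used. Signals were raised to the floor, log2 ratios taken with no further normalization, and genes under the floor on both arrays of a comparison left out. Where 1 array was at the floor, the ratio is a bound. Tables were made with Python 3.11.15 and pandas 2.3.3, and checked on simulated data. Motifs were searched as letters in the 250 bases before RefSeq starts, and the 50 bases after the start were not used.

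All members with a probe set are named, and of genes outside them only the 2 highest and 2 lowest of each list in each tissue. The members, role groups and lists were chosen with earlier results of these data known. The 7 alternatives were the mean over probe sets, no multi-transcript probe sets (identifiers ending in _a_at, _s_at or _x_at), floors at the 20th and 60th percentile, quantile normalization, loess, and a scale set by the spiked controls.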

Additional observations from a re-analysis of the deposited data

Results flagged for a closer look

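Fdft1, squalene synthase, had its genotype ratios on opposite sides in the tissues. Lower in liver and higher in duodenum were 3.03% of members and 1.97% of all genes. The liver log2 ratio was -0.99 and the duodenum ratio 0.87, a difference of -1.86 that was not tested, since each group is 1 array. Another probe set gave -0.89 and 0.74, and one with lower signals -0.61 and -1.01.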

How the results depend on the processing

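No paired analysis was possible because each group has 1 array. The liver counts depended on the scale. On the scale of the spiked controls, 2 members were lower and 12 higher in transgenic liver, with a members' median of 0.30. The role medians there were 0.10 (early), -0.14 (late), 0.72 (sensors) and 0.88 (carriers), Sqle turned to 0.015, the median difference between tissues was 0.22, and 2 members were lower in wild-type liver than in wild-type duodenum. Of the 15 members called in liver, 3 stayed called on that scale, Mvk, Stard4 and Stard3. Over the other 6 alternatives 14 or 15 did, with Hsd17b7 lost by averaging probe sets or leaving out multi-transcript ones, and Hmgcs1 by loess. Without multi-transcript probe sets, 2 members were higher in liver. Duodenum calls depended more on the probe set. Averaging left 3 members lower and turned Npc2 to -0.013, and leaving out multi-transcript probe sets turned Msmo1 to 0.30. Cyp51 and Npc2 also lost their duodenum calls after quantile normalization (-0.51 and 0.53) and with loess (-0.50 and 0.58). Of 13 members called in duodenum, 6 kept the call under each alternative that gave them a value, Lcat among them without a value at the 60th percentile floor. Of 29 called between the wild-type tissues 26 did, Pmvk among them without a value when multi-transcript probe sets were left out. Each of the 6 in duodenum was measured there by a single probe set, not a multi-transcript one. Averaging or leaving out probe sets could therefore not change those calls. Signals near the floor limit Mvk in liver, Npc1l1 in liver, and Npc1, Scap and Lcat in duodenum.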
